A study of Mus musculus with 2 samples.

Results

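The beta tubulin family of the mouse was followed across 2 microarrays of cortical thymic epithelial cells (cTECs), the epithelial cells of the outer thymus that select early thymocytes. The family comprised 8 genes, Tubb1, Tubb2a, Tubb2b, Tubb3, Tubb4a, Tubb4b, Tubb5 and Tubb6, of which 7 were among the 19938 genes with a probe set of their own. It was matched by gene symbol to 10 of 28856 probe sets. Of these, 7 probe sets carried the symbol of 1 member, and 3 carried several symbols that included a member. Tubb3 had been picked for its ratio between the arrays and the other members were added as its family, so the Tubb3 ratio is a description of why it is here and is given no test.

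The Tg array held RNA of cTECs labelled as coming from 7 Aire transgenic mice, and the non-Tg array RNA of cTECs from 5 control mice. These numbers were read as pooled animals. Both groups were NOD mice, a strain prone to autoimmune diabetes, at day 7. In the Tg mice, a semi-knockin strain, Aire, the regulator by which medullary thymic epithelial cells transcribe genes of peripheral tissues, was placed under the promoter of the cortex-specific thymoproteasome gene β5t (Psmb11). The isolation of the cells is not described in the labels used here. Each group had 1 array, so no difference has a replicate check and no p-value is given, and the depth of an array cannot be stated as counts.

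Levels below are the deposited log2 values, and each ratio is Tg minus non-Tg on the log2 scale. Before ratios were taken, levels under 4.80, the 25th percentile of all values, were raised to that floor. The filter on low values kept a gene that reached the median of its array (5.43 for Tg, 5.45 for non-Tg) on at least 1 array. A gene that it kept, called past the filter below, was counted as higher or lower if its ratio was at least 2-fold. The spread closest to an error is the SD of 0.302 for the ratio of 1 probe set, taken from 658 genes read by several kept probe sets. Variation between mice, pools and amplifications is not part of it. Since probe sets differ in how they bind, levels were compared between arrays and not between genes.

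The arrays were checked against their labels. Aire had 7.33 in Tg and 6.06 in non-Tg, a ratio of 1.28 (2.43-fold). All 14 cTEC markers passed the filter, with levels from 7.17 to 12.6 in Tg and from 6.78 to 12.6 in non-Tg. Their ratios all lay above 0, from 0.02 to 0.57 with a median of 0.14. Of all 11422 genes past the filter, 5778 had ratios above 0 and 5531 below. Of them 0 reached 2-fold, against 1.17% of all genes past the filter. The chemokine gene Ccl25 had a ratio of 0.06 and the keratin gene Krt8 one of 0.05. Thymocyte RNA was also present, with 10 of 11 measured thymocyte markers past the filter. Rag1, which encodes a recombinase, had 10.89 (Tg) and 10.96 (non-Tg). Cd3g, of the T cell receptor complex, had 9.94 and 10.23. The levels below therefore belong to RNA of cTECs together with that of other cells, and in such RNA fewer cells of a type and less RNA per cell cannot be told apart.

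Microtubules are hollow polymers of dimers, each of an alpha and a beta tubulin. Vertebrates carry several beta tubulin genes whose products are nearly alike in the core and differ mainly in the tail that faces the cytosol, and which cells mix in proportions typical of their type. Tubb3 is the isotype widely used to stain neurons, Tubb1 is that of megakaryocytes and platelets, Tubb2a, Tubb2b and Tubb4a are abundant in brain, and Tubb5 and Tubb4b are found in most tissues. In epithelium, microtubules carry out vesicle transport, organise the shape of the cell and build the mitotic spindle.

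Sequences upstream of Tubb3, and of Tubb2a and Tubb5 for contrast, are shown because these genes belong to a single family and had unlike ratios. Of the 8 members, 6 had a window that was used in the RefSeq promoter table (GRCm38.p6), and 3 of these are printed. Tubb2b had no window there, and Tubb6 was left out of the motif search. Each line gives the 250 bases before the annotated start of the gene, on the gene's own strand from 5′ to 3′. The windows lie at chr8:123411303-123411552 for Tubb3 (plus strand), chr13:34078009-34078258 for Tubb2a (minus strand) and chr17:35838302-35838551 for Tubb5 (minus strand). Capitals mark matches, on either strand, to 5 short motifs of core promoters and promoter-proximal elements: TATAA (of the core promoter), CCAAT (bound by NF-Y), GGGCGG (bound by Sp factors and known as the GC box), TGACGTCA (the cyclic AMP response element) and CACGTG (an E box).
Tubb3: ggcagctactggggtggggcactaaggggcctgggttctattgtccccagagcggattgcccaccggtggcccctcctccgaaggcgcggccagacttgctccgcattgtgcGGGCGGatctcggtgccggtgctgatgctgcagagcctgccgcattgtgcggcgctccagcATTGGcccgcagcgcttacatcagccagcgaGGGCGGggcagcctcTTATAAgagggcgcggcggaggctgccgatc
Tubb2a: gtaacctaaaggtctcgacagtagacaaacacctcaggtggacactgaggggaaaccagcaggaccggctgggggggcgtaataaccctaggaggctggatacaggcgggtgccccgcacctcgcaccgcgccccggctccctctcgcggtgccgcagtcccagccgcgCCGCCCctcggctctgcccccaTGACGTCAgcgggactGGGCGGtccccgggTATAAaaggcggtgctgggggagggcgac
Tubb5: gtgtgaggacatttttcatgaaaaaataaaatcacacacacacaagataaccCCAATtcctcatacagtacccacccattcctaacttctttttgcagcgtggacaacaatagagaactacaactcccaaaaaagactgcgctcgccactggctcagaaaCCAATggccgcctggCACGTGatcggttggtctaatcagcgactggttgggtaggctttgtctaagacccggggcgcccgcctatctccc

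The Tubb3 and Tubb2a windows shared a TATAA match close to the start. In Tubb3, TATAA was read on both strands as overlapping matches, from base 31 to base 26 before the start. In Tubb2a it lay from base 29 to base 25. Of all 32851 windows of the same length, 22.8% held TATAA on either strand, 33.8% held CCAAT, 32.7% held GGGCGG, 1.55% held TGACGTCA and 6.02% held CACGTG. Tubb3 and Tubb2a each held 2 GC boxes, and in Tubb2a alone of the 6 windows a TGACGTCA match stood at bases 59 to 52. Tubb3 held 1 CCAAT match, on the opposite strand, and Tubb5 held 2. The Tubb5 window held no TATAA and no GC box, and it had a CACGTG match at bases 75 to 70. The GC content was 68.0% in Tubb3 and 68.4% in Tubb2a, with 21 and 22 CG dinucleotides, against 49.2% and 10 in Tubb5. The median over all windows was 52.4% with 6 CG dinucleotides. The Tubb3 and Tubb2a windows were alike in GC content, GC boxes and the TATAA match. They differed in the TGACGTCA match, held by Tubb2a, and in the CCAAT match, held by Tubb3. The part of these windows in any ratio was not tested. A motif match is a description of the letters only.

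Tubb3 had 5.59 on the Tg array and 7.03 on the non-Tg array. The ratio was -1.44, which is 2.71-fold lower in Tg. Tubb3 passed the filter on both arrays, by 0.15 in Tg and by 1.57 in non-Tg, so that its Tg level lay just above the array median and its non-Tg level well above it. Of 11422 genes past the filter, 9 had a lower ratio. Of the 4029 of them with a mean level within 0.5 of that of Tubb3, 4 had a lower ratio, and the SD of their ratios was 0.351. Since Tubb3 was picked for this ratio, these ranks describe the choice and test nothing. The gene has 1 probe set, and no second probe set was at hand to read it again. RefSeq lists 5 beta tubulin pseudogenes beside the 8 genes, among them 1 of Tubb3 (Tubb3-ps1), and whether their transcripts bind this probe set was not tested.

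Tubb2b, a brain isotype whose product is close to that of Tubb2a, differed in the other direction. It had 10.05 in Tg and 9.09 in non-Tg, a ratio of 0.97 or 1.96-fold, which fell short of the 2-fold rule by 0.03 on the log2 scale. Of the genes past the filter, 102 had a higher ratio. Of the 410 with a mean level within 0.5 of that of Tubb2b, 1 had a higher ratio, and the SD of their ratios was 0.251. The ratios of Tubb2b and Tubb3 lay 2.41 apart.

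A probe set annotated to Tubb2a, Tubb2b and the pseudogene Tubb2a-ps2 together had 7.94 in Tg and 7.05 in non-Tg, a ratio of 0.89 (1.86-fold). This was close to the ratio of the Tubb2b probe set and unlike that of the Tubb2a probe set. Which of the 3 genes its signal came from was not tested. It reads the same RNA on the same arrays and is no replicate.

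Tubb2a itself had 10.58 in Tg and 10.54 in non-Tg, a ratio of 0.04 (1.03-fold). The ratio of Tubb2b was 0.93 above that of Tubb2a, against an SD of 0.427 for the difference between 2 probe sets of a gene. These genes neighbour each other on the same chromosome. With the shared probe set averaged in, an alternative added after the values were seen, Tubb2a had a ratio of 0.47 and Tubb2b one of 0.93, so the Tubb2a value depends on leaving that probe set out.

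The widely expressed isotypes had close levels on both arrays. Tubb5 had 9.68 in Tg and 9.75 in non-Tg, a ratio of -0.07. Tubb4b had no probe set of its own and was read by 2 probe sets annotated to Tubb4b and the zinc finger gene Zfp646. The first read 8.39 in Tg and 8.30 in non-Tg. For the second the levels were 7.87 and 7.78, so that both gave a ratio within 0.10 of 0 (0.09 and 0.08). Both list the RefSeq transcript of Tubb4b and none of Zfp646, and share 1 sequence record with the probe set named for Zfp646 alone, so whether the second symbol belongs to the signal was not tested. The probe set of Zfp646 alone had 5.97 in Tg and 5.80 in non-Tg. Each of these differences was smaller than the SD of 0.302.

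Tubb6, a broadly expressed isotype, had 8.71 in Tg and 8.37 in non-Tg. Its ratio of 0.34 (1.26-fold) was near the SD of 1 probe set, and 1589 genes past the filter had a higher one. Tubb1 and Tubb4a did not pass the filter. Tubb1 had 5.41 in Tg and 5.21 in non-Tg, a ratio of 0.20, and Tubb4a, an isotype of brain, had 5.04 and 4.93, a ratio of 0.11. Levels this close to the floor limit what can be seen of a change in scarce transcripts.

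**Figure D1:**
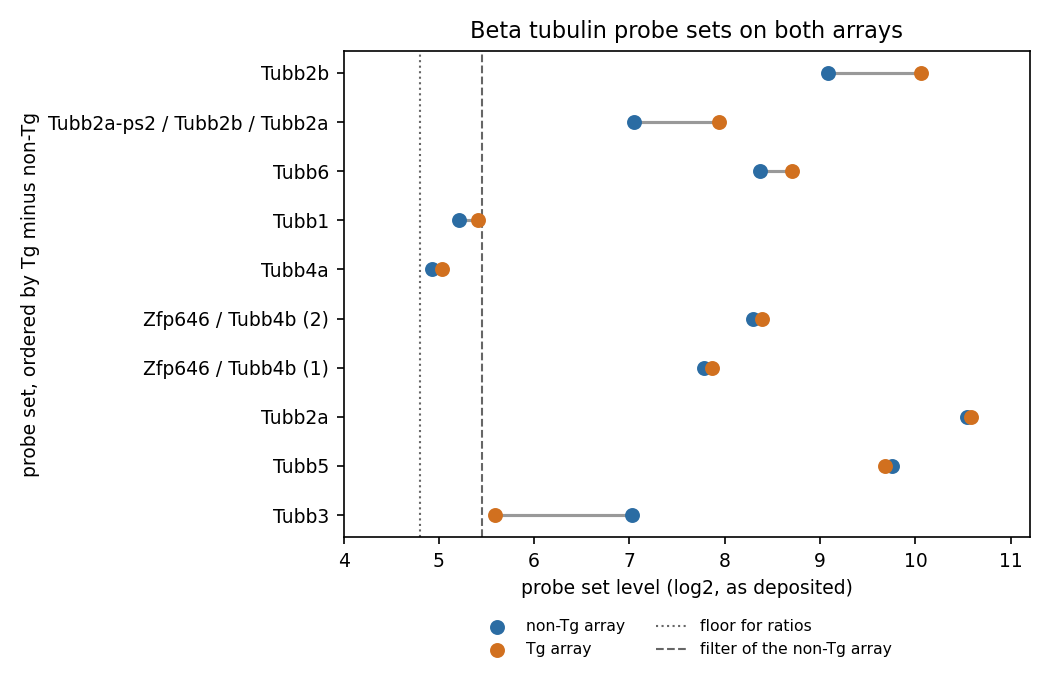
Levels of the 10 beta tubulin probe sets (log2, as deposited) on the non-Tg array (blue) and the Tg array (orange), ordered by the ratio; the lines show the floor of 4.80 and the filter of 5.45, and distances along the axis are to be read within a row only. Tubb3 is to the left in Tg (5.59 against 7.03), while Tubb2b (10.05 against 9.09) and the probe set shared with Tubb2a (7.94 against 7.05) are to the right.

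Of the 8 members, 7 had a probe set of their own and 5 of these passed the filter. Tubb3 was lower and 0 were higher by the 2-fold rule, and the other 4 were within 2-fold. Among all 11422 genes past the filter, 0.376% were at least 2-fold lower, 0.797% at least 2-fold higher and 1.17% either, and since Tubb3 was picked on this contrast, nothing is read from its count. At a threshold of 1.5-fold Tubb2b was called higher as well, where 4.74% of all genes past the filter were higher, 3.13% lower and 7.86% either. Of the 7 measured members, 5 had ratios above 0 and 2 below, against 7780 above and 8420 below among all 19938 genes measured. Their median was 0.11, or 0.15 without Tubb3, against a median of 0.00 over all genes measured and 0.01 over all genes past the filter. Among the measured members, Tubb3, picked for its ratio, and Tubb2b lay farthest from 0, in opposite directions. Without Tubb3 the ratios ran from -0.07 for Tubb5 to 0.97 for Tubb2b.

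**Figure D2:**
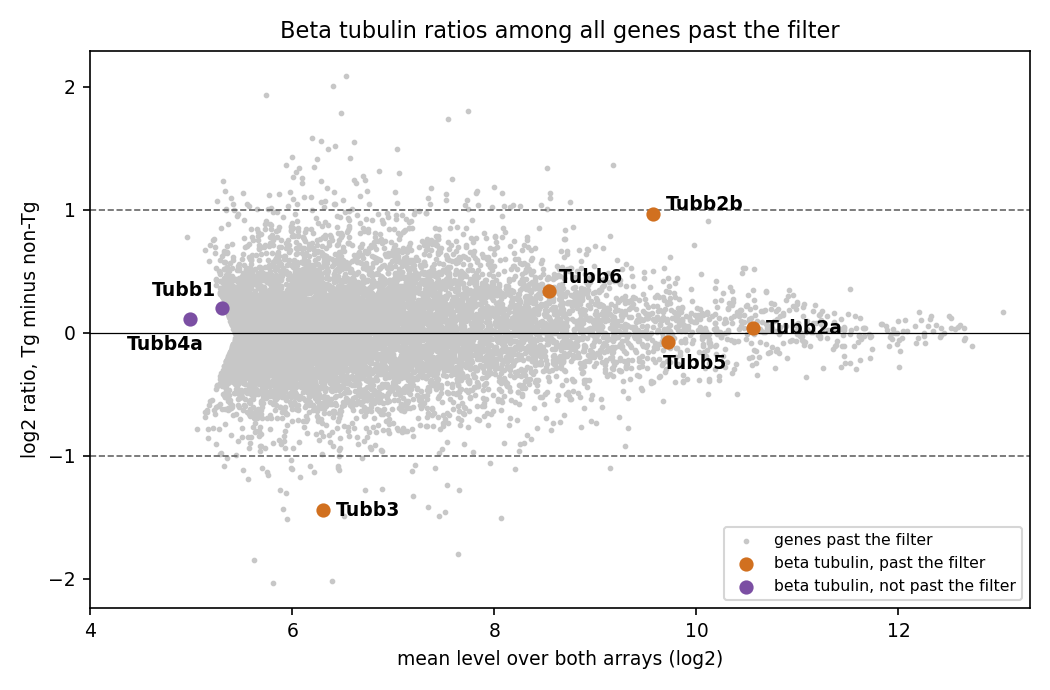
The log2 ratio (Tg minus non-Tg) against the mean log2 level over both arrays, for the 11422 genes past the filter (grey), the 5 beta tubulins past it (orange) and the 2 that were not (purple); dashed lines mark 2-fold. Tubb3 lies at -1.44 and Tubb2b just under the upper line at 0.97, with 1 of the 410 genes near its level above it.

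The genes whose levels were nearest to those of Tubb3 over both arrays were Fbxl17, Wdr5, Sft2d2, Hexa and Zfp141, members left out. Likeness was the Euclidean distance of the 2 log2 levels, which ran from 0.25 for Fbxl17 to 0.32 for Zfp141. With 2 arrays this measure says only that the levels were alike. Wdr5, a subunit of histone methyltransferase complexes, had 5.76 in Tg and 7.25 in non-Tg, a ratio of -1.49. Hexa, a subunit of a lysosomal hexosaminidase, had 5.90 and 7.02, a ratio of -1.12. All 5 were at least 2-fold lower in Tg, which follows from choosing them by these levels.

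Genes that flank Tubb3 did not share its ratio, for which Tubb3 had been picked. In RefSeq order, the nearest measured genes were Mc1r, the melanocortin receptor gene, on one side and Def8 on the other. Mc1r was not past the filter, with 5.06 in Tg, 5.17 in non-Tg and a ratio of -0.11. Def8 had 5.50 and 5.23, a ratio of 0.28. The next genes outward, Tcf25 and Afg3l1, had ratios of 0.16 and -0.09. Around the Tubb2a and Tubb2b pair, Bphl had a ratio of 0.01 and Psmg4, a proteasome assembly chaperone gene, one of -0.32, so that neither shared the ratio of Tubb2b.

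Alpha tubulins are the partners of beta tubulins in every dimer, and those that passed the filter had ratios close to 0. Of 8 listed, 6 had a probe set of their own and 4 passed the filter. Tuba1b and Tuba1c had none of their own, so nothing is said of them. By the 2-fold rule 0 were called, against 1.17% of all genes past the filter. Tuba1a had 10.12 in Tg and 10.13 in non-Tg. Tuba4a had 6.44 and 6.53. The ratios ran from -0.10 to 0.33 with a median of 0.02, and the 0.33 was that of Tuba3b, which did not pass the filter.

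Gamma tubulin and the ring complex that it nucleates microtubules with held the highest ratios within the 12 lists of tubulins and partners. Tubgcp4, a subunit of the ring complex, had 6.82 in Tg and 5.75 in non-Tg, a ratio of 1.06 (2.09-fold), and was the 1 gene called among the 83 past the filter, of 102 measured, in the 12 lists of tubulins and partners. That share is near the 1.17% of all genes past the filter that were called, so it is no result about these lists. Of the 9 ring complex genes, 9 passed the filter, 1 was higher and 0 were lower. Their ratios lay above 0 for 8 and below 0 for 1, with a median of 0.27 and a range from -0.18 for Tubgcp2 to 1.06. Among all genes past the filter 5778 ratios lay above 0 and 5531 below. Tubgcp5 had a ratio of 0.52 and Mzt2 one of 0.50. Tubg1, the main gamma tubulin, had 7.22 in Tg and 6.41 in non-Tg, a ratio of 0.81 (1.75-fold). Tube1, the epsilon tubulin of centrioles, had 6.12 and 6.31. Of the 4 gamma, delta and epsilon tubulins, 2 passed the filter and 0 were called (median -0.08).

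New tubulin chains are handed by prefoldin to the chaperonin CCT, and folding cofactors then join them into dimers. Of the genes of these steps 0 were called, which at a share of 1.17% over all genes says little about them. All 8 CCT subunits passed the filter, with 5 ratios above 0 and 3 below and a median of 0.12. Cct5 had 10.18 in Tg and 10.02 in non-Tg. Cct8 had 9.90 and 9.82. At the ends of the range were Cct3 at -0.44 and Cct6a at 0.58. All 6 prefoldin subunits passed the filter, with a median of -0.14 and a range from -0.36 to 0.02. Pfdn2 had a ratio of -0.35 and Pfdn5 one of 0.00. Of the 7 folding cofactor genes, 7 passed the filter, with a median of 0.11. Tbca, which binds free beta tubulin, had 11.29 in Tg and 11.42 in non-Tg. Tbcb, which binds alpha tubulin, had 8.88 and 9.04. Tbce, another alpha tubulin cofactor, had the widest ratio of this list at 0.72 (6.81 against 6.09).

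Cells also lower tubulin mRNA when free dimers are in excess. Ttc5 recognises the first residues of a tubulin chain as it leaves the ribosome, and Scaper links it to the deadenylase complex that holds Cnot11. Ttc5 had 6.07 in Tg and 5.60 in non-Tg, a ratio of 0.47. Scaper had a ratio of 0.30 and Cnot11 one of -0.11. All 3 passed the filter, 0 of them beyond 2-fold, against 1.17% of all genes past it. The part of this pathway in the tubulin ratios was not tested.

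Among proteins that act on finished microtubules, 0 genes were called, again against 1.17% of all genes. The tubulin modifying enzymes, which add or remove tyrosine, glutamate or acetyl groups on tubulin, had 19 measured genes, 13 past the filter and a median of -0.05. Svbp, the partner of the vasohibin detyrosinases, had 7.08 in Tg and 7.73 in non-Tg (ratio -0.65), and the deacetylase Sirt2 had 7.10 and 7.33. The ends of the range were Ttll4 at -0.72 and Ttll12 at 0.61. Of the stathmins, which sequester dimers, 3 of 4 passed the filter (median -0.04), with Stmn1 at 11.04 in Tg and 11.06 in non-Tg and Stmn3 at a ratio of 0.27. Of 14 microtubule-associated protein genes, 9 passed the filter (median 0.02), with Map4 at 0.30 and Map1s at 0.15. All 12 plus-end and nucleation genes passed it (median -0.02), with the plus-end protein gene Mapre1 at -0.19 and the polymerase gene Ckap5 at 0.48. Of 10 severing and depolymerising genes, 7 passed it (median 0.01), with the kinesin gene Kif2a at 0.02 and the katanin gene Katna1 at 0.48.

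**Figure D3:**
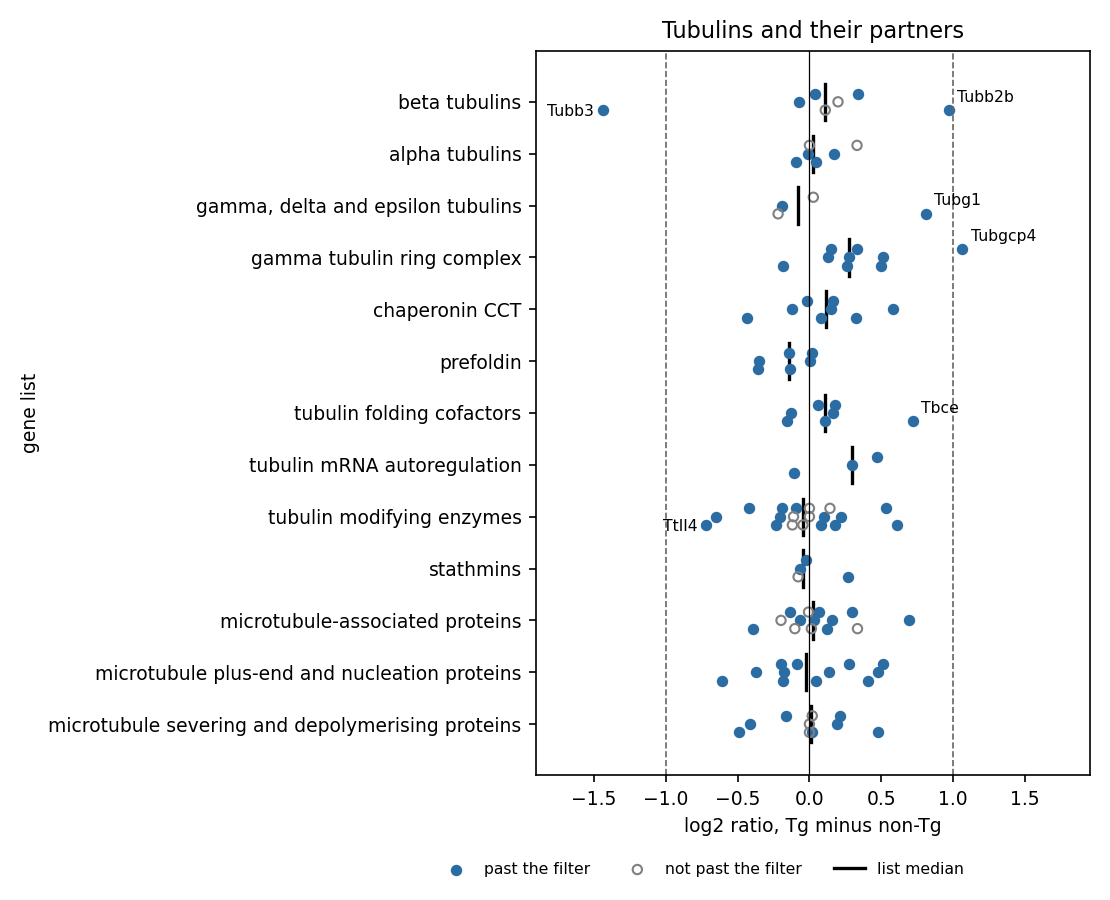
Each point is 1 gene of the beta tubulins or of the 12 lists of other tubulins and their partners, placed by its log2 ratio (Tg minus non-Tg); filled points passed the filter, open points did not, the black bar is the list median and dashed lines mark 2-fold. Tubb3 at -1.44 and Tubgcp4 at 1.06 are beyond the lines, and Tubb2b at 0.97 and Tubg1 at 0.81 are the next on the right.

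No other neuronal marker in the list had a ratio near that of Tubb3. Since Tubb3 was picked for its ratio, this gap is no result about the list. Besides Tubb3, 19 neuronal markers were measured, of which 8 passed the filter. By the 2-fold rule 0 of them were called, against 1.17% of all genes past the filter, which at 8 genes says little. Of the 19, 7 ratios lay above 0, 10 below and 2 at 0 because both levels lay under the floor. The median was -0.01 and the range ran from -0.45 to 0.22. Their levels ran from 4.72 to 9.23 in Tg (median 5.20) and from 4.75 to 9.68 in non-Tg (median 5.22). The low end was the neurofilament gene Nefm, at 9.23 in Tg and 9.68 in non-Tg. At the high end was the growth cone gene Gap43, at 6.14 and 5.92. The synaptic gene Snap25, at 5.05 and 5.07, and the neuronal RNA-binding genes Rbfox3, at 5.41 and 5.31, and Elavl3, at 5.20 and 5.22, did not pass the filter. The synaptic vesicle gene Syt1 and Elavl4 were under the floor in Tg and in non-Tg. Of the 8 past the filter, Nefm, the granin gene Chga (-0.39), Map2 (-0.14) and Ncam1 (-0.05) had ratios of the same sign as Tubb3. Gap43, Nsg1 (0.09), Syp (0.09) and Nefh (0.07) had the opposite sign. All of them were within 2-fold. The part of neuronal RNA in the Tubb3 ratio was not tested.

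REST is the repressor that keeps many neuronal genes silent outside neurons. Rest had 7.04 in Tg and 6.68 in non-Tg, a ratio of 0.36. Of the 8 genes of REST and its corepressors, 7 were past the filter and 0 were called, against 1.17% of all genes past it. Their ratios lay above 0 for 6 and below for 2 (median 0.23), against 7780 above and 8420 below among all genes measured. The deacetylase genes Hdac2 and Hdac1 had ratios of 0.42 and 0.16, and the demethylase gene Kdm1a had 8.56 in Tg and 7.82 in non-Tg, a ratio of 0.75. Among 8 measured neurogenic transcription factors, 6 passed the filter and 0 were 2-fold apart, again against 1.17% of all genes. Their median was 0.00, with Isl1 at 0.06 and Sox4 at -0.14. The part of any of these genes in the Tubb3 ratio was not tested.

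Markers of the other cells that could be in the RNA were set beside the tubulins. Of the 11 thymocyte markers measured, 0 were 2-fold apart (median -0.04, levels from 5.11 to 10.9 in Tg and from 5.34 to 11.0 in non-Tg). Their ratios lay above 0 for 3 and below 0 for 8, from -0.49 for Cd3d to 0.21 for Themis. The megakaryocyte and platelet markers, cells in which Tubb1 is the main isotype, had 1 of 5 measured genes past the filter. This was Treml1 at 6.36 in Tg and 6.71 in non-Tg, while the platelet factor gene Pf4 had 4.85 and 4.68 and the integrin gene Itga2b 5.30 and 5.33. Macrophage and dendritic cell markers had 3 of 10 past the filter (median 0.05), which were Tyrobp at a ratio of -0.58, C1qa at -0.31 and Flt3 at 0.38. Over the whole list 6 ratios lay above 0 and 2 below, among them Lyz2 at 0.36 and Cd68 at 0.33, neither past the filter. Fibroblast markers had 6 of 9 past it (median 0.05), with Acta2, a smooth muscle actin gene, at 0.86 (7.58 in Tg, 6.72 in non-Tg). Postn at 0.51 and Dcn at 0.28 came next from the top. Of the 9 fibroblast ratios 6 lay above 0 and 3 below, down to -0.21 for Lum, which did not pass the filter. Endothelial markers had 6 of 7 past the filter (median 0.08), with Cdh5 at -0.16 and Pecam1 at 0.48. Of the 7 endothelial ratios 4 lay above 0 and 3 below. None of these 5 lists held a gene beyond 2-fold, and at a share of 1.17% over all genes past the filter that says little.

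Of the 11 measured markers of medullary thymic epithelial cells, 9 passed the filter and Aire was the 1 beyond 2-fold (median 0.01). Neuroendocrine and tuft-like thymic cells, rare cells that share genes with neurons, had 4 of 10 measured markers past the filter. Of these the taste cell G protein gene Gnat3 had 7.06 in Tg and 5.50 in non-Tg, a ratio of 1.56, while the granin gene Chga had 5.40 and 5.79 (ratio -0.39) and the tuft cell regulator Pou2f3 5.81 and 5.58. Avil, the remaining marker to pass, was slightly lower in Tg, at a ratio of -0.12. Across all 10 markers of the list 4 ratios lay above 0, 5 below and 1 at 0, and the list median was -0.02. Over all 96 measured cell type markers, 61 passed the filter. Of these 2 were 2-fold higher (Aire and Gnat3), against 0.797% of all genes past the filter, and 1 was 2-fold lower, against 0.376%. The 2 higher and 1 lower genes include Aire, the transgene, and Tubb3, which was picked on this contrast. Their part in the ratios of Tubb3 and Tubb2b was not tested.

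**Figure D4:**
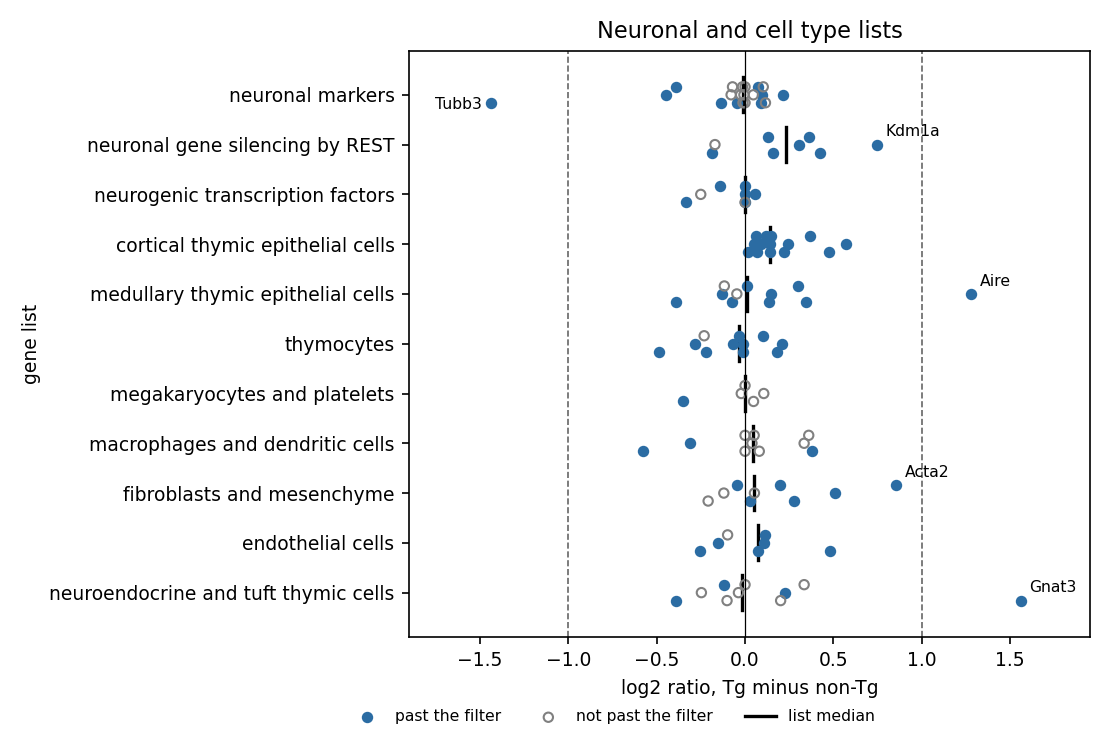
Each point is 1 gene of the neuronal, REST, neurogenic and cell type lists, placed by its log2 ratio (Tg minus non-Tg); filled points passed the filter, open points did not, the black bar is the list median and dashed lines mark 2-fold. Tubb3, picked for its ratio, lies at -1.44, and the other neuronal markers lie between -0.45 and 0.22. Aire (1.28) and Gnat3 (1.56) lie beyond 2-fold on the other side.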

How the data were processed

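Expression was measured on 2 Affymetrix arrays, 1 per genotype. Per the labels' protocols, 400 pg of total RNA was amplified to cDNA and 5.5 µg of cDNA was labelled with biotin. The deposited values are log2 levels, 1 per probe set and array, a scale inferred from their range (4.22 to 13.7). How the authors corrected, normalized and summarised the signals, and on which build, is not stated in the labels. Scan dates were not used here, and no batch was looked for. Values were used as deposited, and 0 columns belonged to other samples.

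Symbols came from the platform annotation in GEO: 21789 probe sets had 1 symbol, 1621 several and 5446 none here. For each gene the probe set with the highest mean was taken. No test is possible with 1 array per group, so a rule of size was used (past the filter and at least 2-fold).

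The members and gene lists were chosen with earlier results of these data known. Named were all members and their probe sets, Aire, Rest, Ttc5, Mc1r, the 5 genes nearest to Tubb3 in level and, per list, the genes beyond 2-fold or else the 2 with the highest mean. Flanking genes other than Mc1r, and other list members given as ends of a range or as examples, were chosen after the lists were fixed or their values seen. Promoter windows and gene order came from RefSeq (GRCm38.p6), and since the build of the array annotation is not known, no other coordinates are given. Python 3.11.15, numpy 2.4.6, pandas 2.3.3 and matplotlib 3.10.9 were used.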

Additional observations from a re-analysis of the deposited data

How the results depend on the processing

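Of the settings tried, the floor, the filter and the choice of probe set could not move the Tubb3 ratio, since the gene lies above each floor and has 1 probe set. Centring the arrays on the median gave -1.42 and quantile normalization -1.45, both beyond 2-fold. Tubb2b ranged from 0.96 to 0.99 and reached 2-fold under none of the settings of floor, filter, scaling and probe set, and Tubb5 from -0.11 to -0.05. Centring or quantile normalization of the arrays changed no direction among the members past the filter. The median of the measured members ranged from 0.00 to 0.13. With a threshold of 1.5-fold, 2 beta tubulins (Tubb3 and Tubb2b), 8 genes of the tubulin partner lists and 898 of all genes were called, in place of 1, 1 and 134. Averaging in the probe sets of several symbols, added after the data were seen, moved Tubb2a from 0.04 to 0.47, because the shared probe set had a ratio of 0.89. No replicate could be left out and no outlying sample sought with 1 array per group. No paired analysis was possible because each group has 1 array and the labels carry no replicate numbers. Levels near the floor limit what can be seen of Tubb1 and Tubb4a.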
